A study of Mus musculus with 8 samples.

Results

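Keratins, claudins and connexins are the structural genes of epithelia, and their promoters were read here in cultured germ cells. The members were the autosomal genes of the promoter methylation table whose symbol begins with Krt and a digit, Krtap, Cldn or Gj with a subgroup letter and a digit, with Gjd3 left out. This name rule gave 31 of the 9224 genes in the table, with 260 of its 203645 cytosines. They were 9 type I keratins (59 cytosines), 5 type II keratins (25), 3 keratin-associated proteins (7), 11 claudins and claudin domain proteins (130) and 3 connexins (39). The number of cytosines per promoter ran from 1 to 37, and 5 members had 1 cytosine each, 5 had 2 and 11 had 10 or more.

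The germline stem (GS) cells are spermatogonia with stem cell activity grown in culture. Here they were derived from CD9-selected testis cells of F1 mice, and the sample titles carry B6. Reduced representation bisulfite sequencing (RRBS), which reads fragments cut by MspI at CCGG after unmethylated cytosines have been converted, was run on 8 lines with 1 library each. The 4 control-F1 lines (29, 37, 44 and 45) came from mice born after natural mating and received no treatment. The 4 ICSI-F1 lines (11, 17, 20 and 21) came from mice born after intracytoplasmic sperm injection with sperm the study calls wild-type. That sperm was taken from testes of green mice, which express an Egfp transgene. Whether the F1 lines carry the transgene was not examined here. The comparison asks whether the way a mouse was conceived is seen in the DNA methylation of its germ cells. The sample descriptions do not say that each line came from a separate animal, although the study's supplement uses the same numbers for single F1 mice, and the tests below measure the spread between lines. The ages of the mice are not given in the sources used here.

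Keratins pair as type I and type II chains into the intermediate filaments of epithelial cells, and the hair keratins, cross-linked by keratin-associated proteins, build the hair shaft. Claudins span the membrane at tight junctions and set which ions and solutes pass between cells, and connexins form the channels of gap junctions. Most of these genes serve epithelia, hair or barriers, whereas germ cells make little use of them. Methylated CpGs at a promoter often go with a silent gene, and promoters rich in CpG are usually unmethylated whether or not the gene is active. RNA was not measured in the files used here.

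A methylation level is the percentage of reads at a cytosine that kept a C, a promoter level is the unweighted mean over its cytosines within 1000 bp upstream of the gene start, and differences are in percentage points. At the member cytosines the coverage, with the scaling between lines undone, ran from 10 to 242 reads, with medians of 36 to 68 reads in the 8 lines. The summed coverage of the whole table was 9121937 to 16781748 reads per line. The lines fall into 2 sets whose sample descriptions are worded differently, set 1 (lines 29, 37, 11 and 17) and set 2 (lines 44, 45, 20 and 21), with 2 lines of each group in each. The mean level over the whole table was 6.14% to 6.88% in set 1 and 8.24% to 9.26% in set 2. Of 22 listed germ cell genes, 12 were in the table, among them Dazl and Ddx4, with control-F1 promoter levels of 1.88% to 9.92%. Their median of 5.84% lay beside 5.9% for all autosomal promoters, of which 84.4% were under 20%. The list was chosen as promoters unmethylated in germ cells and methylated in most somatic cells, but no somatic cells were read here. Whether the low levels identify the cell type was therefore not tested. Of the somatic lists, 3 of 10 fibroblast genes and 2 of 9 Sertoli and Leydig genes were measured, with control-F1 levels of 3.64% to 66.4% and 5.51% to 94.8%. The median difference between the groups, ICSI-F1 minus control-F1, was -1.53 points for the germ cell list, 2.91 for the fibroblast list and -0.137 for the Sertoli and Leydig list. An unadjusted limma p under 0.05 was reached by Piwil2 (-3.92 points) and Col1a2 (19.6 points, 2 cytosines), and the part of other cells in the results was not tested.

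Stretches of 7 member promoters are shown because the levels below refer to them. All are written 5′ to 3′ on the strand of the gene, from the mm10 (GRCm38) reference, with the measured CpGs in capitals. Hair keratin promoters of both kinds come first. The Krt35 stretch, chr11:100096242-100096431 on the minus strand, varied most between lines, and the Krt87 stretch, chr15:101438805-101438984 on the minus strand, was unmethylated at most cytosines. Krt24 (chr11:99285612-99285702, minus strand) and Cldn16 (chr16:26463075-26463134, plus strand) held 3 of the 4 cytosines that passed a 20% rule read from the study's methods. Cldn4 (chr5:134947004-134947289, minus strand) showed a gradient, Krt18 (chr15:102027925-102028165, plus strand) was near-unmethylated throughout, and in Gja4 (chr4:127314169-127314304, minus strand) the strands of a CpG differed.
Krt35: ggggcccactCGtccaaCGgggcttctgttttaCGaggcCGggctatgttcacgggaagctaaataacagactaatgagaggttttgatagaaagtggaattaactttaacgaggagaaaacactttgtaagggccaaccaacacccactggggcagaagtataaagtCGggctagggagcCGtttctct
Krt87: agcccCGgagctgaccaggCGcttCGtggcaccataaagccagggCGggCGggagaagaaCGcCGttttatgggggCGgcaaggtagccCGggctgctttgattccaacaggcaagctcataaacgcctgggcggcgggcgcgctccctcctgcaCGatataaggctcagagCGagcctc
Krt24: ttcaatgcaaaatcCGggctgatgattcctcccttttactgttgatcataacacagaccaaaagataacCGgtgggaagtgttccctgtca
Cldn16: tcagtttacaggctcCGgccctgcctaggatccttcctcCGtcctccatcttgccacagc
Cldn4: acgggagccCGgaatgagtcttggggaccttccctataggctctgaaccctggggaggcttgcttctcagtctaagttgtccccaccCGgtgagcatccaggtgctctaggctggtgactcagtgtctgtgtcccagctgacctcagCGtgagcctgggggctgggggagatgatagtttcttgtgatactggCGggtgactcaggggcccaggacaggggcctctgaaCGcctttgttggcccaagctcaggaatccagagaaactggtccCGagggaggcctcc
Krt18: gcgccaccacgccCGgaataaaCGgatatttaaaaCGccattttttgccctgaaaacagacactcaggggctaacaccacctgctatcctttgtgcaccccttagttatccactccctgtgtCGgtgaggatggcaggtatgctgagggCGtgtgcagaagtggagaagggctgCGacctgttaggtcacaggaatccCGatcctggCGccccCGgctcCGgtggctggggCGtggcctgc
Gja4: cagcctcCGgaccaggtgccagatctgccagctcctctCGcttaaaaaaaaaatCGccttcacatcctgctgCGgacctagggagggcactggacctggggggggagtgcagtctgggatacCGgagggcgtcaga
At the member cytosines the GENCODE M21 annotation held no other gene, except that the 4 cytosines of Gjd2 lay in the noncoding transcript A530058N18Rik on the plus strand, outside its exons.

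The member promoters ranged from near-unmethylated to near-fully methylated. In control-F1 GS cells 16 of 31 members lay under 20%, 8 at 80% or more and 7 between. Over the 9004 autosomal promoters the shares were 84.4% under 20%, 7.94% at 80% or more and 7.64% between, beside 51.6%, 25.8% and 22.6% of the members. The median was 5.9% against 16.5% over the members. All 3 connexins and 7 of 11 claudins lay under 20%, whereas only 2 of 9 type I keratins did. Median control-F1 levels were 78.9% for type I keratins, 20.1% for type II keratins, 6.25% for keratin-associated proteins, 7.53% for claudins and 7.56% for connexins. These are descriptions of a list chosen by name, without a test. Among the members at 80% or more, Krt27, Krt33a, Krt84, Krtap5-4 and Cldn24 were measured only 604 bp or more upstream. Their start regions were not read. Krt39, Krt42 and Cldn14, the others at that level, had cytosines nearer, from 215, 152 and 31 bp upstream.

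**Figure D1:**
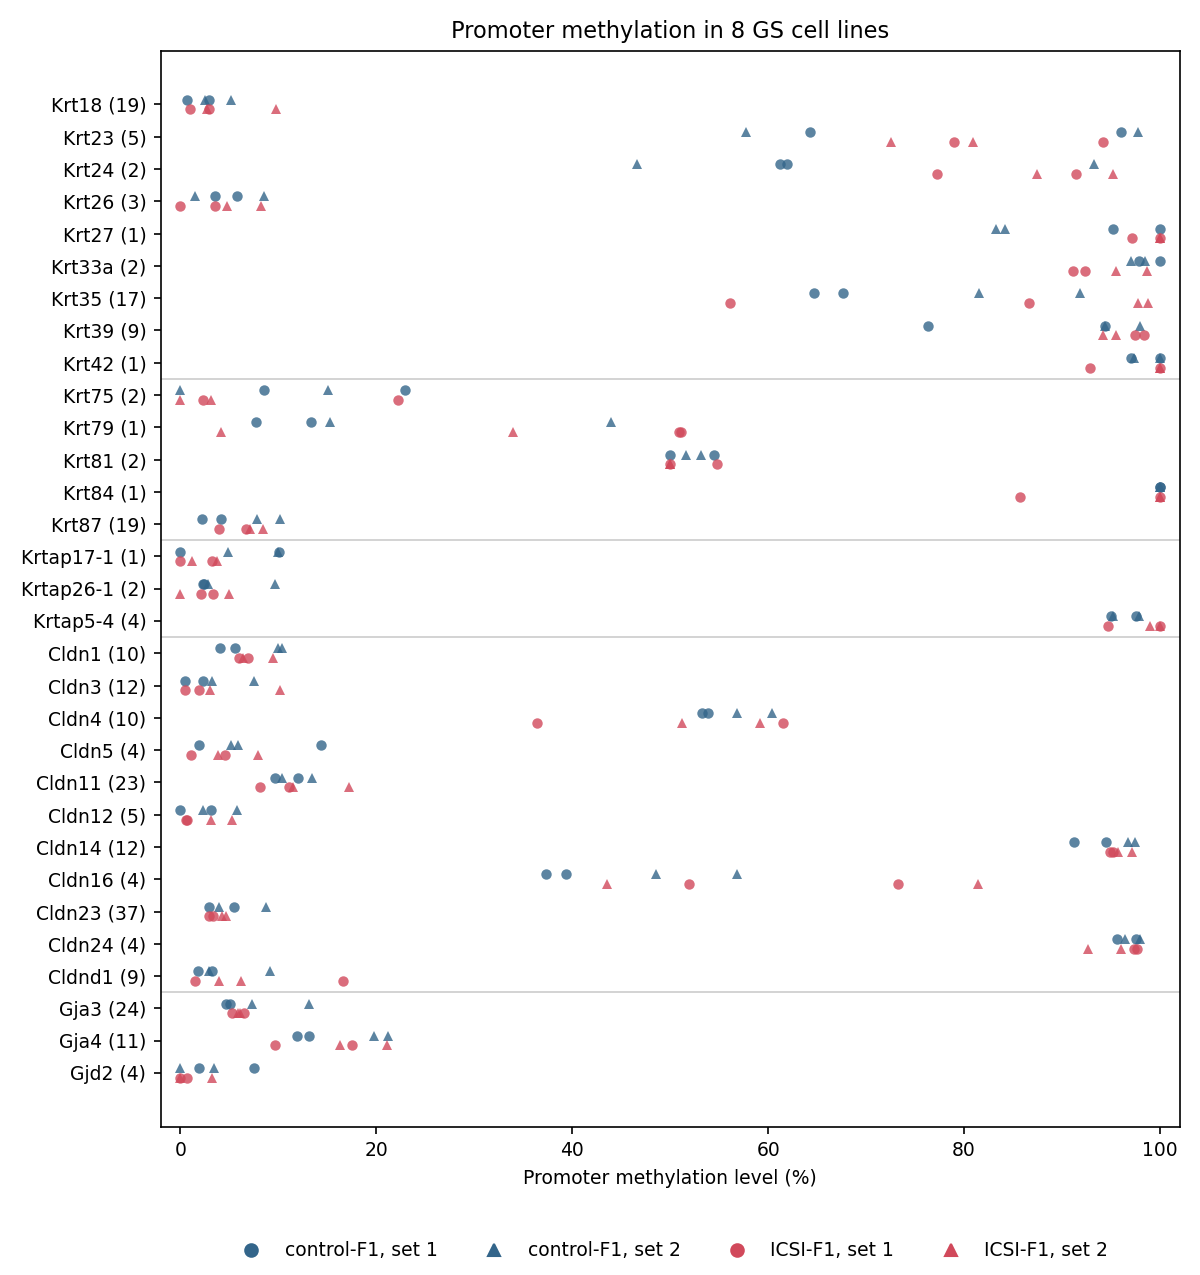
Promoter methylation level (%) of the 31 members in 8 GS cell lines, with the number of measured cytosines in parentheses and lines separating type I keratins, type II keratins, keratin-associated proteins, claudins and connexins. Each point is 1 line (blue, control-F1, red, ICSI-F1, circles, set 1, triangles, set 2), and most members lie under 20% or at 80% or more, with Krt24, Krt35, Krt79 and Cldn16 spread widest.

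Krt18, the type I keratin of simple epithelia, was the least methylated type I keratin. Its promoter level over 19 cytosines was 0.649%, 2.88%, 5.15% and 2.53% in control-F1 lines 29, 37, 44 and 45 and 0.974%, 2.89%, 9.75% and 2.69% in ICSI-F1 lines 11, 17, 20 and 21. The groups overlapped, and no cytosine of Krt18 had a control-F1 mean above 7.73%. Krt26, an inner root sheath keratin with 3 cytosines in a CpG island, was at 4.85% ± 3.03 (SD, n = 4) in control-F1 GS cells. The other 7 type I keratins, all on chromosome 11 like Krt26, had control-F1 means from 65.7% to 98.6%.

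Krt39, a hair keratin, was at 90.8% ± 9.81 in control-F1 and 96.4% ± 1.91 in ICSI-F1 GS cells (SD, n = 4 each). The lines had 94.4%, 76.3%, 94.4% and 98% in the control-F1 group and 97.4%, 98.4%, 94.2% and 95.5% in the ICSI-F1 group. Line 37 stood below the other 7. Its low values were confined to the 5 cytosines 215 to 323 bp upstream, where line 37 had 58.9% and the other lines 91.4% to 97.4%, and at the 4 cytosines from 405 bp on all 8 lines had 96.3% to 100%. Krt23 averaged 78.9% ± 20.9 in control-F1 and 81.7% ± 9.11 in ICSI-F1 GS cells (SD, n = 4 each). Its 4 control-F1 lines had 96%, 64.3%, 97.7% and 57.7%, and the ICSI-F1 lines 79%, 94.2%, 80.9% and 72.5%, so that the spread within the control-F1 group exceeded the difference between the groups.

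Krt35, a type I hair keratin, had the largest spread between lines within the groups among members with at least 3 cytosines, with a pooled SD of 16.7 points. Over its 17 cytosines the control-F1 lines 29, 37, 44 and 45 had 67.6%, 64.7%, 91.8% and 81.5%, and the ICSI-F1 lines 11, 17, 20 and 21 had 56.1%, 86.6%, 98.8% and 97.7%. The spread lay near the gene start. At the 11 cytosines 8 to 180 bp upstream the levels were 51.6%, 51.5%, 89% and 73.1% in the control-F1 lines and 34.7%, 80.1%, 99.7% and 98.9% in the ICSI-F1 lines, whereas at the 5 cytosines 730 to 812 bp upstream all 8 lines had 94.6% to 99.3%. Lines 29, 37 and 11 were the low ones and all 3 belong to set 1, but line 17 of the same set was at 80.1%. Set 2 was higher than set 1 by 23.7 points over the whole promoter (limma, unadjusted p = 0.00685, adjusted p = 0.0689).

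Among the type II keratins, Krt87, a hair keratin with 19 cytosines within 175 bp of the gene start, was at 6.09% ± 3.6 in control-F1 and 6.56% ± 1.87 in ICSI-F1 GS cells (SD, n = 4 each). By line it was 4.1%, 2.23%, 10.2% and 7.84% in the control-F1 group and 3.96%, 6.74%, 8.4% and 7.15% in the ICSI-F1 group. Neither it nor Krt35 had a cytosine in an annotated CpG island, and the observed/expected CpG ratio of their 1 kb promoters was 0.452 for Krt87 and 0.299 for Krt35. The remaining type II keratins had 1 or 2 cytosines each, and control-F1 means of 11.6% for Krt75, 20.1% for Krt79, 52.3% for Krt81 and 100% for Krt84. The cytosine of Krt84 lay 859 bp upstream. The single cytosine of Krt79, 41 bp upstream, ranged from 4.17% in ICSI-F1 line 21 (4 of 96 reads, 95% Wilson interval 1.63% to 10.2%) to 51.4% in ICSI-F1 line 17 (18 of 35 reads, 35.6% to 67%), with reads as counted before scaling. Such intervals count every read as independent and leave out the spread between lines. The reads carry no molecular identifiers, so copies of 1 molecule cannot be told apart and the intervals may be too narrow.

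The keratin-associated protein Krtap5-4 was methylated in every line, at 97.5%, 95%, 97.9% and 95.2% in control-F1 and 94.7%, 100%, 99% and 100% in ICSI-F1 GS cells over 4 cytosines 730 to 797 bp upstream. Krtap17-1 and Krtap26-1, with 1 and 2 cytosines within 59 bp of the gene start, had levels of 0% to 10.1% in the 8 lines.

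Of the 11 claudin family promoters 7 lay under 20% in control-F1 GS cells. Cldn1, needed for the epidermal barrier, was at 7.53% ± 3.17 in control-F1 and 7.19% ± 1.57 in ICSI-F1 GS cells. Cldn3 was at 3.38% ± 2.98 and 3.89% ± 4.34, and Cldn5, the main claudin of endothelium, at 6.83% ± 5.33 and 4.35% ± 2.8. Cldn12 was the lowest claudin, at 2.79% ± 2.37 and 2.39% ± 2.23, and Cldn23, with 37 island cytosines, was at 5.25% ± 2.53 and 3.8% ± 0.805 (SD, n = 4 in each group throughout). Cldn11, a component of the tight junctions between Sertoli cells and of myelin, was at 9.63%, 12%, 13.4% and 10.4% in the control-F1 lines and 8.17%, 11.1%, 17.2% and 11.5% in the ICSI-F1 lines over 23 cytosines.

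Cldn14, a claudin of the inner ear and kidney, and Cldn24 were at the other end. Cldn14 was at 95% ± 2.81 in control-F1 and 95.7% ± 0.95 in ICSI-F1 GS cells, and Cldn24 at 96.9% ± 1.09 and 95.9% ± 2.31 (SD, n = 4 each). At Cldn14 the 11 cytosines within 253 bp of the gene start were at 95.3% to 98.3% in all 8 lines, so that a fully methylated start region was present in both groups. Cldn24 was measured only 604 to 689 bp upstream.

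Cldn4, a barrier claudin of many epithelia, had an intermediate promoter whose level rose with distance from the gene start. Over its 10 cytosines, all in a CpG island shore, the control-F1 lines had 53.2%, 53.9%, 56.8% and 60.4%, and the ICSI-F1 lines 61.5%, 36.4%, 59.2% and 51.2%. The control-F1 mean was 16.8% ± 3.82 at the 3 cytosines 83 to 126 bp upstream, 69.5% ± 4.87 at the 6 cytosines from 161 to 268 bp and 93.7% ± 5.02 at the cytosine at 346 bp (SD, n = 4). ICSI-F1 GS cells had 13.2% ± 11.7, 64.4% ± 13.8 and 94.2% ± 6.66 at the same positions (SD, n = 4). Line 17 was lowest in the first and the middle stretch, with 1.68% and 45%.

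**Figure D2:**
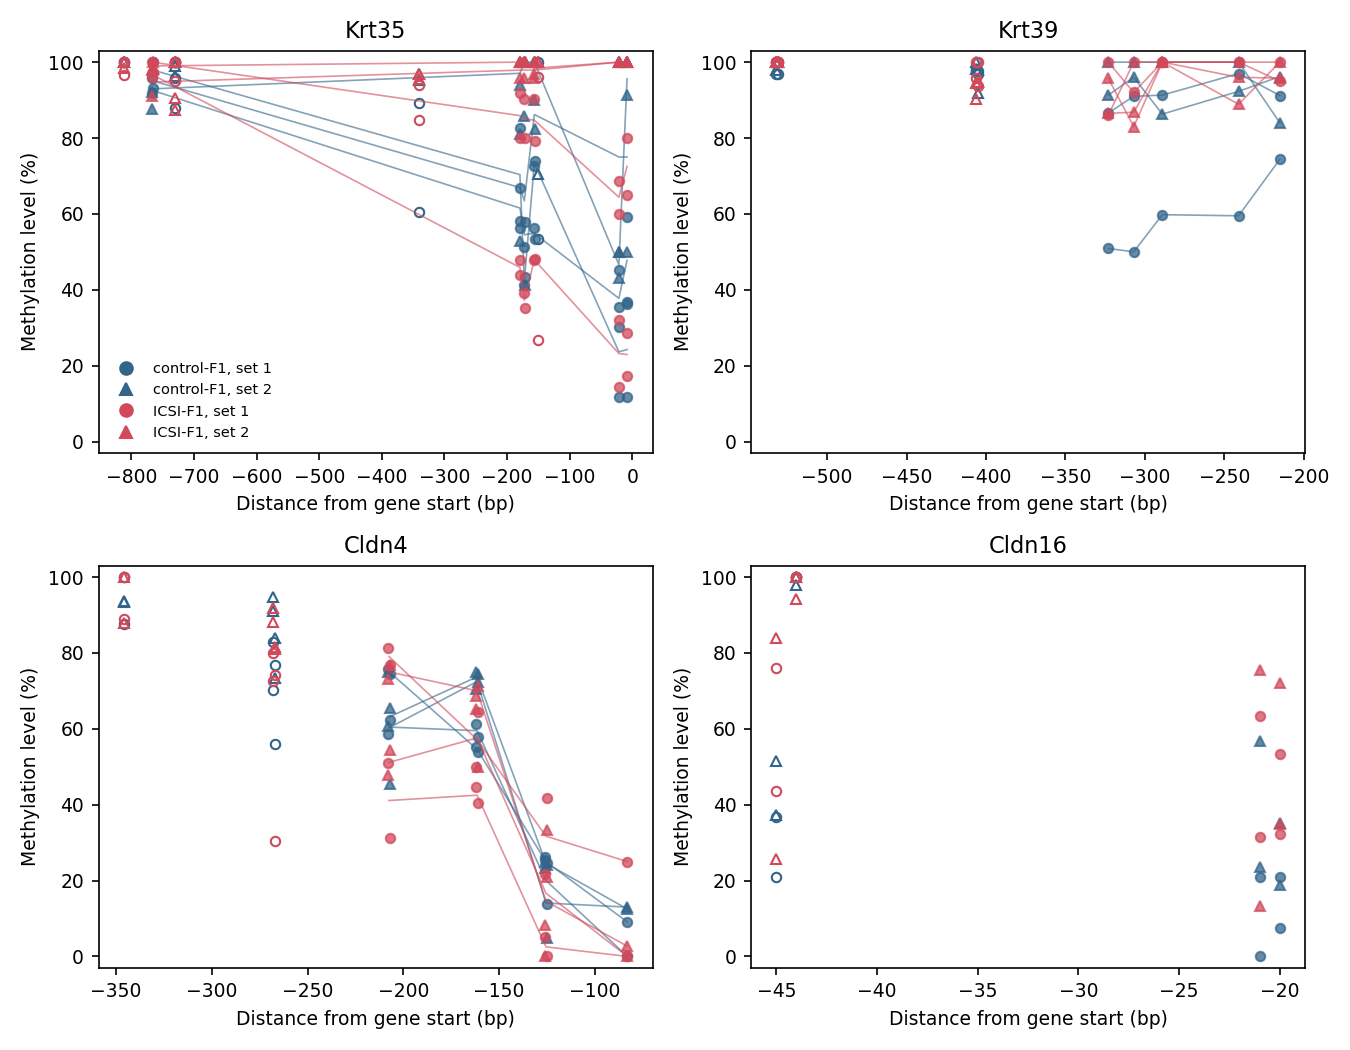
Methylation level (%) of each measured cytosine against its distance from the gene start (bp) at Krt35, Krt39, Cldn4 and Cldn16 in 8 GS cell lines (blue, control-F1, red, ICSI-F1, circles, set 1, triangles, set 2). Open symbols are cytosines within CCGG, and the thin lines join the means of the other CpGs of 1 line. Lines diverge near the start of Krt35, where single cytosines within 180 bp run from 11.8% to 100%, 1 control-F1 line departs at Krt39, and Cldn4 rises with distance in all lines.

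The 3 connexin promoters were low. Gja3, a lens connexin, was at 7.56% ± 3.9 in control-F1 and 5.94% ± 0.491 in ICSI-F1 GS cells over 24 cytosines, and Gjd2, a neuronal connexin, at 3.21% ± 3.19 and 0.967% ± 1.51 over 4 island cytosines (SD, n = 4 each). Gja4, the connexin of endothelium and of the contacts between oocyte and granulosa cells, was the highest of the 3 over all its cytosines, but without cytosines in CCGG it had the lowest control-F1 mean, 2.4% beside 3.06% for Gja3 and 3.21% for Gjd2. Its lines had 11.9%, 13.1%, 21.2% and 19.8% in the control-F1 group and 9.69%, 17.5%, 21.1% and 16.3% in the ICSI-F1 group.

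Among the members with at least 1 cytosine in a CpG island or shore, 10 of 11 (90.9%) lay under 20% in control-F1 GS cells. Cldn4 was the exception. Of the 6408 autosomal promoters with such a cytosine, 94.7% lay under 20%, so the members were near the share of all. Of the 20 members with all cytosines outside islands and shores, 6 lay under 20% and 8 (40%) at 80% or more. Of the 2449 autosomal promoters of the same kind, 59.1% lay under 20% and 25% at 80% or more. Across the 31 members the level fell with the observed/expected CpG ratio of the promoter (Spearman's rho = -0.533, Pearson's r = -0.453), and across the 9004 autosomal promoters it did too (rho = -0.384, r = -0.482). These correlations are across promoters of the same libraries, which are not independent replicates. Every member at 80% or more had a ratio of at most 0.361, while members under 20% ranged from 0.164 to 0.657.

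**Figure D3:**
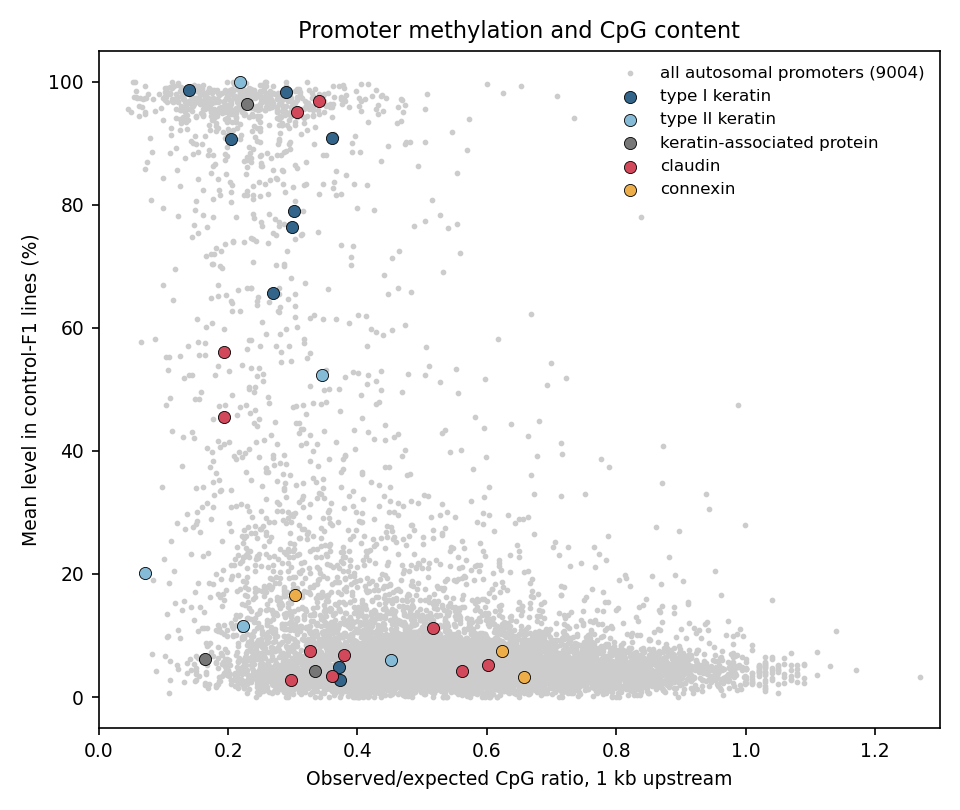
Mean control-F1 promoter level (%) against the observed/expected CpG ratio of the 1 kb upstream of the gene start, for the 31 members by family (coloured points) and all 9004 autosomal promoters (grey). Members at 80% or more have ratios of 0.14 to 0.361, and the 3 connexins all lie under 20%.

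Distance from the gene start separated the cytosines outside islands. The mean control-F1 level of member cytosines was 32.6% within 100 bp (35 cytosines), 34.4% between 100 and 250 bp (53), 78.8% between 250 and 500 bp (11) and 95.2% beyond (20). Over all autosomal cytosines outside islands, shores and shelves it was 11%, 17.8%, 28.8% and 51.5%. The bin of 11 cytosines rests on 5 genes and the farthest on 8, so single promoters weigh in these means.

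Within CCGG, the cut site of the assay, the strands of a CpG often differed. Of 86 member CpGs measured on both strands, 11 of the 18 within CCGG differed by more than 20 points in the mean of 8 lines and none of the other 68 did. Over all autosomal promoters it was 5532 of 10831 CpGs within CCGG and 11 of 69175 elsewhere. At Krt81, whose 2 cytosines are the strands of 1 CpG, the plus strand was at 97.5% and the minus strand at 5.99%, so its promoter mean of 52.3% describes no measured cytosine. At Gja4 the CpG at chr4 position 127314296 had 94.7% on the plus and 5.62% on the minus strand. Without CCGG cytosines, the control-F1 level of Gja4 was 2.4% in place of 16.5%, that of Cldn16 23% in place of 45.5% and that of Cldn11 5.54% in place of 11.3%. Of the 260 member cytosines 71 lie within CCGG, and 6 members have no other cytosine, Krt24 among them. What sets the strands apart was not tested.

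**Figure D4:**
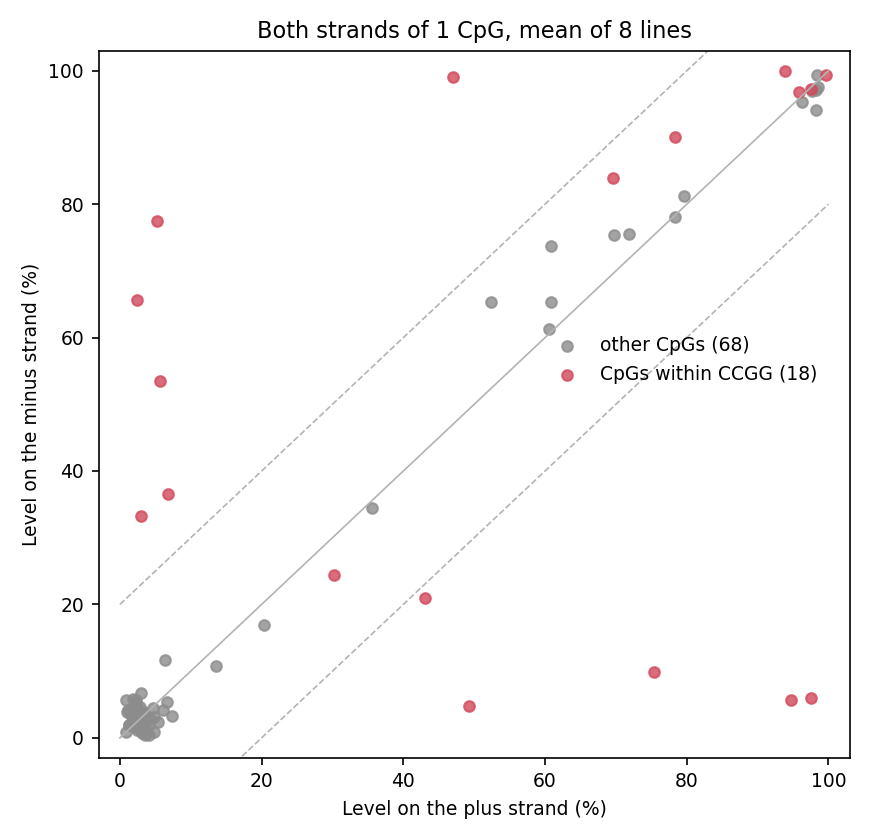
Methylation level (%) on the minus strand against the plus strand, as the mean of 8 lines, for 86 CpGs of member promoters measured on both strands. Solid and dashed lines mark equality and a gap of 20 points, and the 11 CpGs beyond the dashed lines all lie within CCGG (red).

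ICSI-F1 and control-F1 GS cells were then compared. A rule read from the study's methods calls a cytosine when the group means differ by more than 20 points and no line is reversed, taken here as every ICSI-F1 line lying on the same side of the control-F1 mean. The methods do not say what a reversed line is compared with, so the rule the study applied may differ from this one. The study reported smaller shares of its covered sites in both directions, so this reading does not reproduce its calls. The reading gave 4 member cytosines higher in ICSI-F1 GS cells and 0 lower, of 260. Of all cytosines in the table, the rule gave 0.274% as higher and 0.0506% as lower. Outside islands, shores and shelves, where all 4 lay, the shares were 1.43% and 0.296% of all cytosines, beside 4 of 119 (3.36%) and 0 of 119 for the members. None of the 4 passed a logistic test of the reads across all cytosines, and at none did the groups separate.

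The cytosine of Cldn16, a kidney claudin for magnesium reabsorption, lay 20 bp upstream (chr16, position 26463115, minus strand). The control-F1 lines had 7.38%, 21%, 18.8% and 35.1%, and the ICSI-F1 lines 53.3%, 32.4%, 34.8% and 72.1%. Lines 17 and 20 fell just below control-F1 line 45, so the groups overlapped. The difference was 27.6 points (quasi-binomial test moderated with limma, p = 0.000244, adjusted p = 0.485). Over the 4 cytosines of the promoter the control-F1 lines had 37.3%, 39.4%, 56.8% and 48.5% and the ICSI-F1 lines 73.2%, 51.9%, 43.5% and 81.4%, a difference of 17 points (SE 8.87, limma p = 0.0879, adjusted p = 1; exact permutation test p = 0.171). The minus-strand cytosine at 44 bp, within CCGG, was at 94.2% to 100% in every line and did not share that difference. On the plus strand of the same CpG the difference was 20.7 points, and at the plus-strand cytosine at 21 bp it was 20.6. The groups overlapped at both. Without CCGG cytosines the promoter difference was 24.1 points. Without ICSI-F1 line 21 no cytosine of Cldn16 was called.

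Both measured cytosines of Krt24, a type I keratin, were called, 370 bp (chr11, position 99285632, plus strand) and 426 bp (position 99285688, minus strand) upstream. Together they had 61.9%, 61.2%, 93.3% and 46.6% in the control-F1 lines and 77.2%, 91.4%, 87.4% and 95.2% in the ICSI-F1 lines. Control-F1 line 44 stood with the ICSI-F1 lines. The difference was 22.1 points (SE 8.91, limma p = 0.0354, adjusted p = 1; exact permutation test p = 0.114), and it was 22.8 points in set 1 and 21.4 in set 2. Without line 44 it was 31.2 points and without line 45 it was 15.7. Without line 45 neither cytosine was called, nor when every control-F1 line was checked against the ICSI-F1 mean instead. Only 1 of them was called without line 29, 37, 17 or 21, in either set alone and with the reads of the lines pooled. Both cytosines lie within CCGG.

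The cytosine of Cldn14 lay 998 bp upstream (chr16, position 94009835, minus strand), at the far end of the window. The control-F1 lines had 16.1%, 63.5%, 88.2% and 81% and the ICSI-F1 lines 94.4%, 80%, 72.8% and 84.5%. The control-F1 mean of 62.2% rested on line 29, and without line 29, or without ICSI-F1 line 11, the cytosine was no longer called. The difference was 20.8 points (moderated quasi-binomial test with limma, p = 0.00642, adjusted p = 0.702). It was 47.4 points in set 1 and -5.88 in set 2, so the sign turned between the sets. With every control-F1 line checked against the ICSI-F1 mean instead, the cytosine was not called.

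The call of 4 depended on the lines. Without ICSI-F1 line 11 there were 9 cytosines higher, 6 of them at Krt35, and 1 lower, at Cldn4. Without control-F1 line 29 there were 2, at Cldn16 and Krt24. If the groups also had to be free of overlap, there was none. The groups were free of overlap at 1 member cytosine, chosen here after its values were seen, where the means differed by under 20 points. It lay 126 bp upstream of Cldn4 (chr5, position 134947060, minus strand), with 25.4%, 26.3%, 23.4% and 25% in the control-F1 lines and 21.7%, 5.05%, 8.22% and 0% in the ICSI-F1 lines. ICSI-F1 was lower, at 8.75% against 25% (moderated quasi-binomial test with limma, p = 0.00885, adjusted p = 0.702). Of all cytosines 0.679% were separate in this direction and 0.427% in the other.

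Across all cytosines the moderated quasi-binomial test called 0 of 196818 at a false discovery rate of 0.05 (0%), and at an unadjusted p under 0.05 it had 13899 (7.06%). Of the 257 member cytosines tested, 25 (9.73%) had an unadjusted p under 0.05, 16 of them with the higher level in the ICSI-F1 lines and 9 with the lower, and the smallest adjusted p was 0.35, at Krt39. Of all cytosines with such a p, 5106 were higher and 8793 lower in the ICSI-F1 lines. Cytosines of 1 promoter are not independent. The 16 higher member cytosines include 5 neighbours at Krt39, 215 to 323 bp upstream, where control-F1 line 37 was low. The members' split turned with the model, to 6 higher and 10 lower without moderation and to 9 higher and 25 lower with the set of lines as a covariate. The limma test of promoter levels called 0 of 9224 (0%), and 236 (2.56%) had an unadjusted p under 0.05. Of the 31 members 2 did, Krt24 and Krt27, both higher in ICSI-F1 GS cells and with 2 and 1 cytosines, and with the set as a covariate it was 2 higher and 0 lower again. In no member promoter were the groups free of overlap, while over all promoters 0.672% were separate with ICSI-F1 higher and 0.791% with ICSI-F1 lower. The smallest exact permutation p over the members was 0.114, where 4 lines against 4 allow 0.0286 (two-sided, 70 arrangements).

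The largest differences among the members with at least 3 cytosines, after Cldn16, were 8.42 points at Krt35 (exact permutation test p = 0.514), 5.6 at Krt39 (p = 0.286), -4.03 at Cldn4 (p = 0.657) and 2.8 at Cldnd1 (p = 0.571), each smaller than the spread between lines. At Krt39 the difference was 0.771 points without line 37. At Cldnd1, a claudin domain protein, ICSI-F1 line 17 had 16.6% and the other ICSI-F1 lines 1.5% to 6.23%, and without line 17 the sign turned (-0.379). At Cldn4 it turned too without line 17 (1.18).

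The mean over the 31 member promoters was 39.5%, 39%, 45% and 39.9% in the control-F1 lines and 41.1%, 42.9%, 43.9% and 42.3% in the ICSI-F1 lines. ICSI-F1 was higher by 1.73 points, and control-F1 line 44 was the highest of all. Over all autosomal promoters the difference was 0.277 points. Of the members 14 had the higher level in the ICSI-F1 lines and 17 the lower, with a median difference of -0.339 points, beside -0.161 over all autosomal promoters. By family the mean difference was 4.85 points for type I keratins (6 of 9 higher), 1.21 for type II keratins (2 of 5 higher), -1.28 for keratin-associated proteins (1 of 3 higher), 1.09 for claudins (5 of 11 higher) and -1.4 for connexins (0 of 3 higher). Within set 1 the members' difference was 2.77 points and within set 2 it was 0.686.

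**Figure D5:**
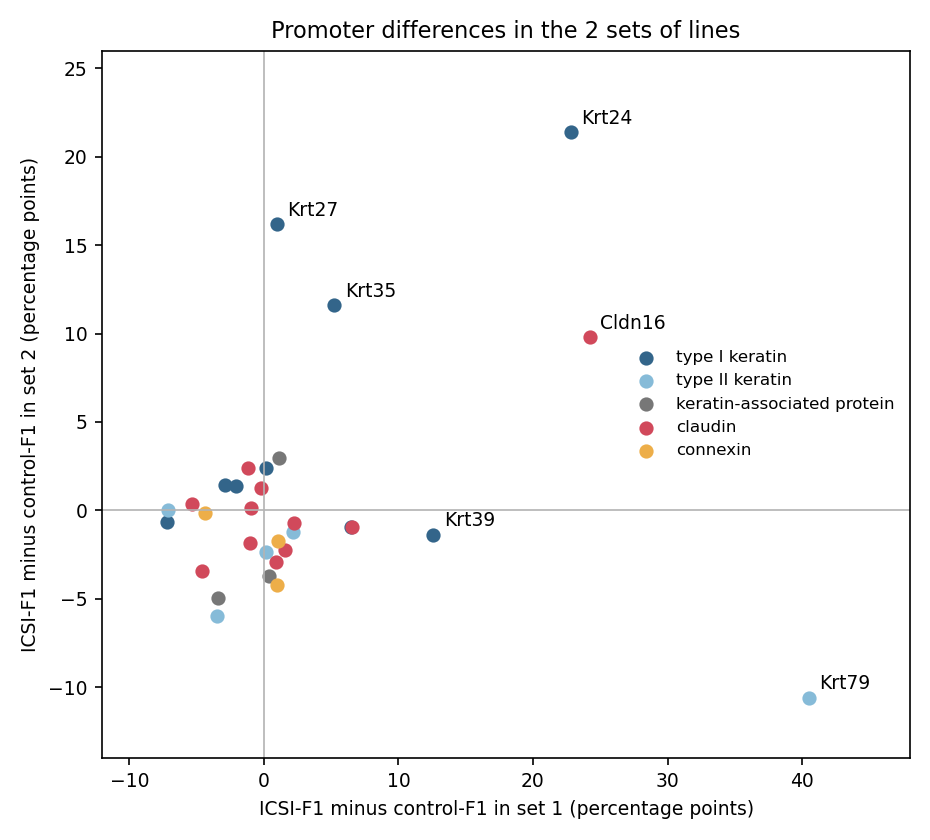
Difference of the promoter level, ICSI-F1 minus control-F1 (percentage points), in set 1 (horizontal) and set 2 (vertical), each from 2 lines a group, for the 31 members by family. Krt24 and Cldn16 are higher in ICSI-F1 in both sets, and Krt79 goes from 40.5 in set 1 to -10.6 in set 2. Opposite signs are seen in 18 of 31 members, a count without the share over all promoters beside it.

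More promoters had small p-values between the sets of lines than between the groups. Of all promoters 36.8% had an unadjusted p under 0.05 between set 2 and set 1, and 1 (0.0108%) passed a false discovery rate of 0.05. Of the 3393 promoters with such a p, 3369 were higher in set 2, and the mean over all autosomal promoters was 14.4% in set 1 and 17% in set 2. Of the members 23 of 31 were higher in set 2, 6 (19.4%) had an unadjusted p under 0.05 and none passed. The direction was thus not particular to the members. The 6 were Krt35, Krt87, Cldn1, Cldn3, Cldn12 and Gja4, with set 2 higher by 23.7, 4.14, 3.45, 4.71, 2.99 and 6.55 points. What separates the sets was not tested.

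The spread between lines was widest at intermediate promoters. Of the 5 members whose mean over 8 lines lay between 20% and 80%, 4 ranged over more than 20 points (median range 44.1), beside 60.8% of 679 autosomal promoters of that class (median range 25.6). Of the 16 members under 20% it was 1 (6.25%, median range 9.05), beside 2.43% of 7579 autosomal promoters (median range 5.56). Of the 10 at 80% or more it was 3 (30%, median range 11.6), beside 17.4% of 746 autosomal promoters (median range 7.83).

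Partners of these proteins were described beside all 9004 autosomal promoters, whose median was 5.9%, with 84.4% under 20%. Of 22 listed tight junction partners 17 were measured, with a median control-F1 level of 5.44% and 16 under 20%. Of 17 desmosome and plaque genes 9 were measured (median 5.7%), of 15 other intermediate filament genes 7 (median 5.8%) and of 3 pannexins 1, Panx1, at 5.53%. No gene of these lists passed the limma test or had an unadjusted p under 0.05, and 1 cytosine, of Lmnb2, which encodes a nuclear lamin, was higher by the 20% rule (50.8% in control-F1 and 74.9% in ICSI-F1 GS cells).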

How the data were processed

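Genomic DNA of 8 GS cell lines was sequenced by RRBS. Per the labels and the study's methods, the authors trimmed reads with Trim Galore (0.5.0), used Bismark (0.20.0) for alignment to the mm10 genome, and took the converted and unconverted reads at each position into methylKit (1.16.0 in the submitters' processing notes), scaling coverage between lines, filtering on coverage, joining the lines with strands kept apart and assigning promoters. The deposited values are scaled, rounded read numbers and are treated as a score, not as raw counts. The lowest scaled coverage was 10 reads.

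Levels were computed from the scaled reads. The scaling factors, 1 to 1.88, were recovered from the values to give unscaled coverage. Cytosines were tested with a quasi-binomial logistic model that took the scaled reads as counts, with its dispersion moderated across all sites. With the scaling undone, that test gave 16905 cytosines with an unadjusted p under 0.05 in place of 13899, and called 0. Promoters were tested with limma (3.58.1, R 4.3.3, trend). Both tests used Benjamini-Hochberg adjustment over the whole table at a false discovery rate of 0.05. Single promoters were given an exact two-sided permutation test. Other steps used Python 3.11.15. The tests were tested on simulated data. CpG positions matched the reference at 203644 of 203645 cytosines.

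The members and lists were chosen with earlier results of these data known. Members named are those with a cytosine past the 20% rule, the 5 largest differences, the 2 highest and the lowest of each family and the 4 largest spreads (each among those with at least 3 cytosines), and 20 known genes, of which 8 were in the table; 20 members qualified. The other 11 are named for completeness or after their values were seen. Alternatives were other thresholds, exclusions, coverage minimums, scalings, line sets, merged strands and each line left out. Leaving out CCGG cytosines was added after seeing the data.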

Additional observations from a re-analysis of the deposited data

Results flagged for a closer look

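Dixon's test for a single stray line was applied to 64 groups of 4 lines, the 31 members and their mean in each F1 group, and it marked 8. Chance marks about 1 in 20 groups of untied values. At Krt39 control-F1 line 37 had 76.3% and the other control-F1 lines 94.4% to 98%. The mean of the member promoters was 45% in control-F1 line 44 and 39% to 39.9% in the other 3. Krtap26-1 was at 9.66% in control-F1 line 45 and at 2.3% to 2.78% in the others.

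The other 5 were ICSI-F1 lines at promoters with 1 or 2 cytosines. Line 17 had 22.2% at Krt75 (others 0% to 3.12%), 97.1% at Krt27 (others 100%), 54.8% at Krt81 (others 50%) and 85.7% at Krt84 (others 100%), and line 11 had 92.9% at Krt42 (others 100%). At Krt27, Krt42, Krt81 and Krt84 the other 3 lines were tied, so that any deviation of the fourth is marked and the rate of 1 in 20 does not apply to these 4. At Krt84 line 17 rested on 14 of 16 reads, and at Krt42 line 11 on 26 of 28.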

How the results depend on the processing

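The count of 4 member cytosines higher by the 20% rule became 7 at a threshold of 10 points, 1 at 25, 8 with reversed lines allowed, 0 with no overlap allowed, 14 in set 1 alone, 7 in set 2 alone and 1 without CCGG cytosines. With a line left out it ran from 2 (without line 29) to 9 (without line 11). With every control-F1 line checked against the ICSI-F1 mean instead, the rule called 2 cytosines of Cldn16 and 1 of Krt35. Krt24 and Cldn14 were then not called. With the reads of the lines pooled it called 1 cytosine each of Cldn14, Cldn16 and Krt24, and 2 of Krt39. The count of 0 lower became 1 at a threshold of 10 points, 1 in set 2 alone and 0 to 1 with a line left out. The cause was not tested. The cytosine test called 0 members in every setting, the set of lines as a covariate included. Over all cytosines it called 8 with at least 20 scaled reads in every line, 1 with strands merged, and 0 to 70 with a line left out: 70 without line 44, 16 without line 17, 9 without line 37, 6 without line 11, 5 without line 20 and 1 without line 45. The promoter test called none in any setting. The member difference of 1.73 points became 1.12 (without line 37) to 3.12 (without line 44) with a line left out. With island cytosines alone it was -0.615, but only 8 of the 31 members have such cytosines. Of 393 alternative values of single promoters, 383 moved by less than the spread between lines. Of these, 248 came from leaving a line out. Dropping 1 of 4 lines shifts a mean by only part of that spread, so those 248 show little. Of the 31 promoters, 4 moved by more in set 1 alone, 4 in set 2 alone and 2 with reads pooled over sites. No paired analysis was possible because the groups share no line numbers, and the set does not pair lines. Coverage near 10 reads, and promoters with 1 or 2 cytosines, limit what could be detected.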

Other observations

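Of 19 listed epithelial regulators and surface genes 14 were measured, 11 of them with a control-F1 promoter level under 20%, beside 84.4% of all autosomal promoters. Cdh1, which encodes E-cadherin, was at 17.4% in control-F1 and 17.7% in ICSI-F1 GS cells, and Epcam at 10.1% and 11.7%. Ehf, an epithelial transcription factor, was at 95.8% and 95.1%, the serine protease gene Prss8 at 47.5% and 57.6%, and Rab25, an epithelial GTPase of membrane traffic, at 42.5% and 45.9%. Of 13 cornified envelope genes 2 were measured, Casp14 at 22.9% and 24.9% and Krtdap at 94.4% and 94.7%. None of the 16 had an unadjusted p under 0.05 in the limma test, and no cytosine of either list passed the 20% rule.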
